A study of Rattus norvegicus with 8 samples.

Results

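The genes described here are 10 markers of resident tissue macrophages: Cd68, Adgre1, Csf1r, Cd163, Mrc1, Lyz2, C1qa, C1qb, Folr2 and Aif1. They were taken by gene name from a table of 19238 genes, in which each name occurs once, and all 10 passed the filter on low counts that left 13673 genes for testing. The samples were 8 libraries of total RNA from rat thoracic aorta. The 4 control libraries came from Wistar rats and the 4 diabetic libraries from Goto-Kakizaki (GK) rats, an inbred strain derived from Wistar stock that develops diabetes without obesity, and both groups were 7 to 8 weeks old. The GK group carries the disease label diabetic macroangiopathy. No treatment is named for either group. Strain and diabetes split the libraries in the same way, so they cannot be told apart here. The source label of all 8 libraries reads GK, which contradicts the control titles and strains, and groups were taken from the titles. Libraries are called by group and by the number in their title, 7 to 10. Nothing in the labels ties a library to one animal, so p-values measure the spread between these libraries, which may in part be technical. Gene totals were 11760397 to 16266151 counts per library. Library 8 of the controls stood apart from its group for several of the genes, and library 9 of GK for Cd68. Results that rest on these libraries are also given without them.

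Resident macrophages of the aorta lie mainly in the outer layer, the adventitia, and in the fat around it. They survive on signals through the receptor for colony-stimulating factor 1 (CSF1), clear dying cells and debris by receptor-mediated uptake, and make complement C1q, which tags material for uptake. Many of their genes are switched on by the transcription factor PU.1, encoded by Spi1, which binds purine-rich sites with a GGAA core. In diabetes, macrophages of the vessel wall are studied as a source of inflammation and of foam cells. In whole tissue, fewer macrophages and less RNA per macrophage cannot be told apart.

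The promoter windows of 4 of the genes are printed because the results turn on them. Lyz2 was the 1 gene past the test, Csf1r encodes the survival receptor, C1qb stands for the C1q chains, and Cd68 had a higher mean in GK, unlike the others. Each window is 250 bases before to 50 bases after the start of transcription, from RefSeq on build GRCr8. Sequences were at hand for 9 of the 10 genes, all but Aif1. Capitals mark GAGGAA or its reverse complement TTCCTC, a core of PU.1-type sites, searched on both strands.
Lyz2 promoter, chr7:54797962-54798261, minus strand: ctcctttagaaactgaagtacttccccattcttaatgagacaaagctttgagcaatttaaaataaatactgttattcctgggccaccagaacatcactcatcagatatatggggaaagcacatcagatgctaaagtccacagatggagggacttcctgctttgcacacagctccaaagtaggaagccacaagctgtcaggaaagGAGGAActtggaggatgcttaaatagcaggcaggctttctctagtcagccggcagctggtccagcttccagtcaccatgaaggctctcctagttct
Csf1r promoter, chr18:56834129-56834428, plus strand: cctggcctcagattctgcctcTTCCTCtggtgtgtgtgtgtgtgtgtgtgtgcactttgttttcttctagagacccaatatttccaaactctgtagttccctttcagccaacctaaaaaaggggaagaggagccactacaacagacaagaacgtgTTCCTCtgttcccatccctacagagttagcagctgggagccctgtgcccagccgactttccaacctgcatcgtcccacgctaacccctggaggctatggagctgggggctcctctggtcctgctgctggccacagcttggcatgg
C1qb promoter, chr5:154407778-154408077, minus strand: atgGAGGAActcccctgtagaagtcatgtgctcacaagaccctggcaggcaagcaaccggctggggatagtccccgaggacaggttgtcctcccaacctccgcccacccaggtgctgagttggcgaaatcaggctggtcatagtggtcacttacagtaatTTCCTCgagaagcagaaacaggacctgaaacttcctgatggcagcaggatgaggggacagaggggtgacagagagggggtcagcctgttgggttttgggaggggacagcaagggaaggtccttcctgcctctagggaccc
Cd68 promoter, chr10:54882392-54882691, minus strand: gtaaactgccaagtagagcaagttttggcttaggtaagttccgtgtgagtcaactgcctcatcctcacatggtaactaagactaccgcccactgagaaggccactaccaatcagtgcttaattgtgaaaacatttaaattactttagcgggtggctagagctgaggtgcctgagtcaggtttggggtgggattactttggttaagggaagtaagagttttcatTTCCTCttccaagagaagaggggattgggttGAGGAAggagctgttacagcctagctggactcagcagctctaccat
The 6 letters occurred in the windows of Lyz2, Csf1r, C1qb, Cd68, Adgre1 and Mrc1, 6 of 9, and in 27.6% of all 33469 promoter windows of that length. In Lyz2 the match starts at position -46 from the start of transcription. Csf1r has matches at -229 and -95, C1qb at -247 and -90, and Cd68 at -27 and 5. A match is a stretch of letters, not a measured binding site, and the windows of Cd163, C1qa and Folr2 hold none. Other stretches with a GGAA core were not marked, and those windows do hold such stretches. Lyz2, with a lower mean in GK, and Cd68, with a higher one, both hold the motif.

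Levels were compared between genes on the scale that corrects for gene length, the deposited FPKM (fragments per kilobase of gene and per library depth). Lyz2, which encodes the bacteria-digesting enzyme lysozyme, stood highest in all 8 libraries, at 321 ± 152 FPKM in controls (mean ± SD, n = 4) and 104 ± 35.3 in GK. In controls C1qa (31.8 ± 19.5), C1qb (30.7 ± 18.6), Csf1r (24.0 ± 12.9), Mrc1 (23.2 ± 11.8), Cd68 (22.9 ± 1.99) and Cd163 (20.5 ± 11.9 FPKM) followed, and no neighbours among these differed by more than their spread. Folr2 lay at 14.9 ± 8.69, Adgre1 at 6.45 ± 3.43 and Aif1 at 3.09 ± 1.27 FPKM. In GK Cd68 was second in the order at 33.9 ± 11.8 FPKM, above C1qb (15.9 ± 7.60) and C1qa (15.9 ± 7.50). Cd68 ranked from 2 to 8 of 10 in single controls, and 2 in every GK library but GK 9, where it ranked 5.

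**Figure D1:**
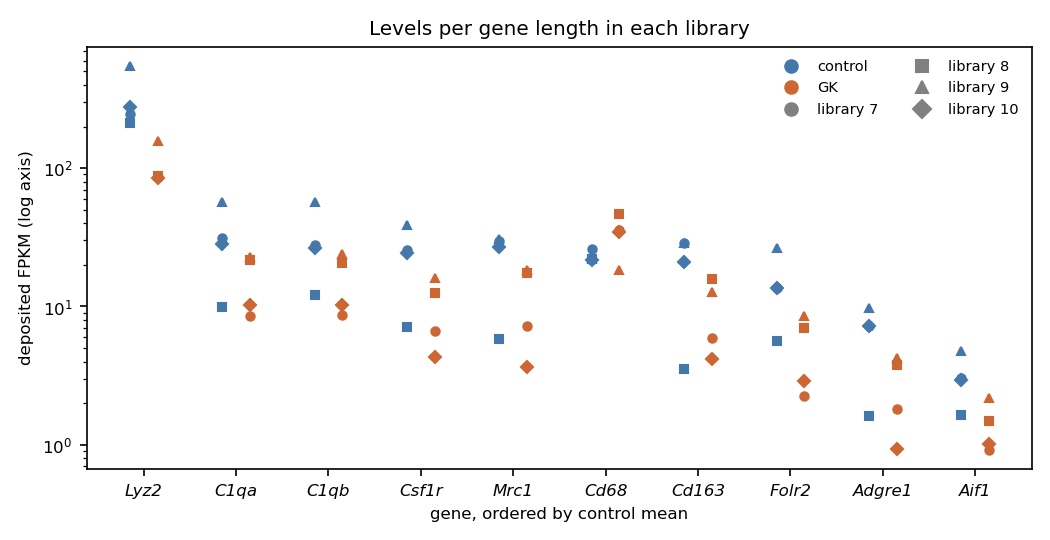
Deposited FPKM on a log axis for the 10 genes in each of the 8 libraries, ordered by the control mean; blue is control, orange is GK, and the symbol gives the library number. Lyz2 lies above all other genes, Adgre1 and Aif1 lie lowest, and Cd68 is the gene whose GK mean (33.9) is above its control mean (22.9).

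From here on levels are CPM, counts scaled to a common library total with TMM factors, which compare libraries but not genes, and a log2 fold change is that of GK relative to control, with its SE. Both it and the p, adjusted by Benjamini and Hochberg's method across every gene tested, come from the quasi-likelihood test of edgeR. Of the 10 genes 1 passed the test, Lyz2, which fell. Over all genes tested 7.28% were called, and 3.31% were called lower in GK. By mean 9 of the 10 genes were lower in GK and Cd68 was higher. The median log2 fold change was -0.96, against 0.00 over all 13673 genes tested. At an unadjusted p under 0.05, 5 of the 10 genes differed (27.6% of all genes did), 4 of them lower (13.4%).

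Lyz2 (ENSRNOG00000005825, chromosome 7, 60335969 to 60341264 in the deposited coordinates, as are the positions of the other genes) is made by macrophages and other myeloid cells. Its level was 290.0, 276, 525 and 304 CPM across controls 7 to 10, and the GK libraries 7 to 10 had 123, 107, 159 and 123 CPM. Every GK library lay below every control, and control 9 was far above the other controls. Its log2 fold change was -1.45 ± 0.25 (edgeR adjusted p = 0.017), a 2.73-fold lower level. It was the only one of the 10 genes whose groups did not overlap, as they did not for 15.6% of all genes tested. The call was lost without any 1 of 4 libraries. The edgeR adjusted p was 0.0532 without control 10, 0.0632 without GK 7, 0.0695 without GK 8 and 0.0551 without GK 10. In those 4 fits, in that order, 0.974%, 1.34%, 1.3% and 2.1% of all genes were called. The log2 fold change of Lyz2 was then -1.51, -1.43, -1.37 and -1.43. In the authors' deposited table Lyz2 was the one gene of the 10 called, with a log2 fold change of -1.62. That call rests on the same libraries, and the share of all genes called there was not counted here. A neighbouring lysozyme gene, Lyc2, is a close relative, so reads could in principle be shared between them; it held 2 to 14 counts per library, and Lyz2 1552 to 7829.

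Csf1r (chromosome 18, 56414488 to 56458300), the receptor for CSF1, had 117, 35.7, 143 and 103 CPM in the controls, in the same order, while GK had 36.3, 59.3, 62.3 and 23.9 CPM. The groups overlapped because of control 8, which lay below 3 of the 4 GK libraries. The log2 fold change was -1.13 ± 0.44 (edgeR adjusted p = 0.143), so the difference did not pass the test. Adgre1, the adhesion receptor known as F4/80 in mice, stood at 23.4, 5.73, 25.6 and 21.7 CPM in controls and at 7.08, 12.8, 11.8 and 3.70 in GK. Again control 8 was low and lay among the GK libraries (-1.11 ± 0.51, edgeR adjusted p = 0.194).

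Cd163, Mrc1 and Folr2 are receptors for uptake, and Cd163 (7.41) and Mrc1 (4.68) had the largest ratios of highest to lowest control among the 10 genes. Cd163, the scavenger receptor for haemoglobin bound to haptoglobin, stood at 132, 17.7, 107 and 88.7 CPM in controls and at 32.5, 74.9, 50.1 and 23.1 in GK. Control 8 was the lowest of all 8 libraries. The log2 fold change was -0.93 ± 0.57 (edgeR adjusted p = 0.318). Mrc1, the mannose receptor, ranked the controls in the same order, with 154, 32.9, 129.5 and 128 CPM. In GK it stood at 45.2, 94.6, 81.7 and 23.0 CPM (-0.86 ± 0.54, edgeR adjusted p = 0.327). Folr2, a folate receptor of tissue macrophages, stood at 12.8, 5.82, 20.4 and 11.9 CPM in controls and 2.55, 6.86, 6.90 and 3.32 in GK. Control 8 lay below GK 8 and GK 9, and the fold change of -1.37 ± 0.45 had an edgeR adjusted p of 0.0937.

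C1qa and C1qb encode A and B chains of the C1q molecule, which is built from A, B and C chains, and their genes lie near each other on chromosome 5 (155261250 to 155264143 and 155246447 to 155252003, in the deposited coordinates, whose rat build no source used here gives). C1qa stood at 32.6, 11.4, 48.5 and 27.3 CPM in controls and at 10.7, 23.5, 20.4 and 13.1 in GK. C1qb stood at 29.7, 14.1, 49.4 and 26.2 CPM in controls and at 11.2, 23.1, 22.1 and 13.4 in GK. For both, control 9 was highest and control 8 lay among the GK libraries. The log2 fold changes were -0.82 ± 0.42 and -0.77 ± 0.38 (edgeR adjusted p = 0.243 and 0.231). Without control 9 they were -0.48 and -0.41. The chains kept a near-constant ratio: on the FPKM scale C1qa over C1qb was 0.831 in control 8 and between 0.952 and 1.13 in the other 7 libraries. C1qc, the third chain and not among the 10, was 2.24 to 2.73 times C1qb in FPKM and had a log2 fold change of -0.69 ± 0.37 (edgeR adjusted p = 0.257).

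Aif1, the calcium-binding protein also called Iba1, was the least abundant per length. It stood at 7.63, 4.53, 9.72 and 6.89 CPM in controls and at 2.77, 3.91, 4.71 and 3.10 in GK. The groups overlapped only because control 8 lay just below GK 9. The log2 fold change of -0.99 ± 0.28 had an edgeR adjusted p of 0.0687.

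Cd68 (chromosome 10, 56268720 to 56270640), a glycoprotein of lysosomes and late endosomes used as a general macrophage marker, had a higher mean in GK. The controls had 31.7, 29.8, 22.3 and 24.4 CPM, and the GK libraries 52.8, 59.7, 19.3 and 52.1 CPM. GK 7, 8 and 10 lay above every control, and GK 9 lay below every control. The log2 fold change was 0.77 ± 0.32 (edgeR adjusted p = 0.164). Without GK 9 it was 1.03 ± 0.16 (edgeR adjusted p = 0.00678), where 22.1% of all genes were called. GK 9 is singled out here for its low Cd68 value, and without it the groups are separate by that choice. That p-value therefore does not show a rise of Cd68.

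**Figure D2:**
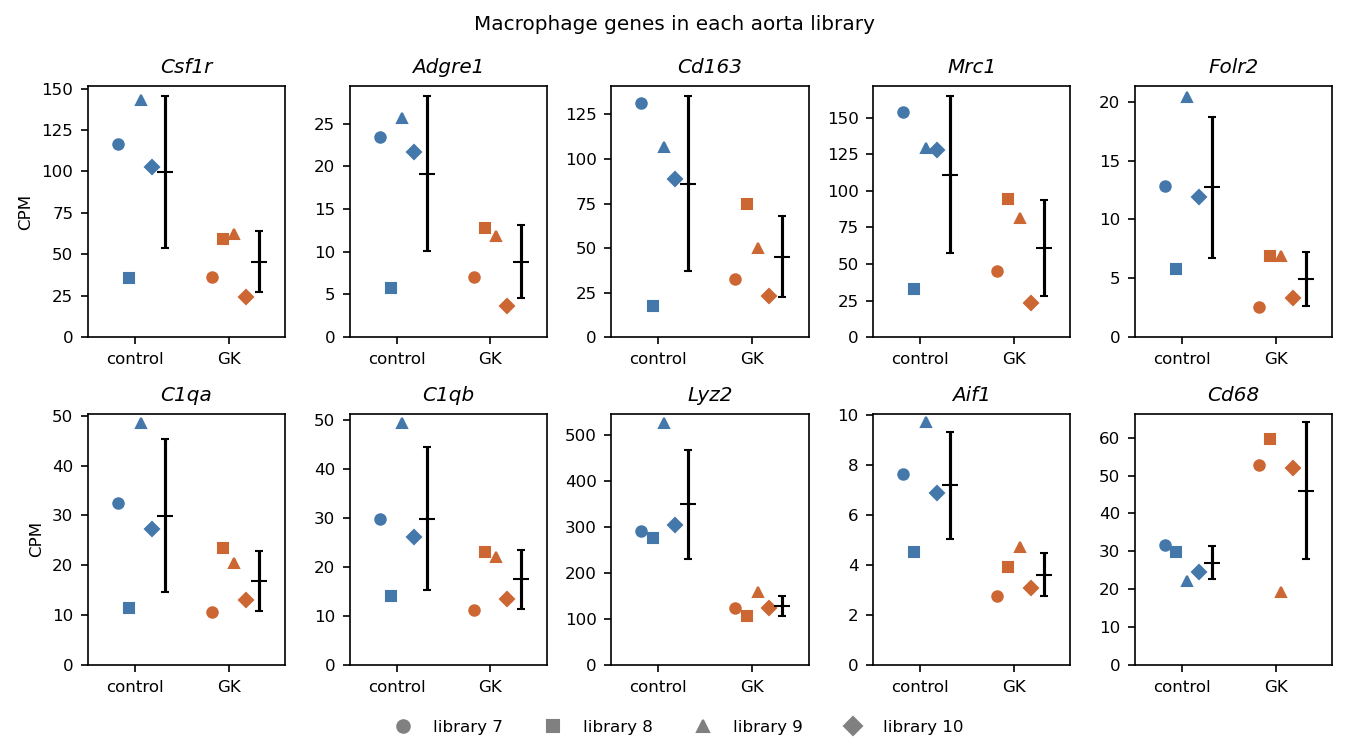
CPM of the 10 genes on linear axes from 0, 1 panel per gene; points are libraries (the symbol gives the number), and the bar beside each group is the mean ± SD of 4 libraries. Control 8 lies among or below the GK libraries for 8 of the 9 genes that are lower in GK, the exception being Lyz2, and GK 9 is the low GK library for Cd68.

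The libraries were ordered alike by most of the genes. Control 8 was the lowest control for 9 of the 10 genes, all but Cd68, against 29.9% of all genes tested. Its level was 0.163 times the mean of the other 3 controls for Cd163, 0.240 for Mrc1, 0.243 for Adgre1 and 0.295 for Csf1r, but 0.741 for Lyz2 and 1.14 for Cd68. Control 9 was the highest library for 7 of the 10 genes, and the share of all genes with control 9 highest was not counted here. Within GK, libraries 7 and 10 were the lowest for 8 genes, all but Lyz2 and Cd68. GK 7 or GK 10 was the lowest GK library for 6426 of the 13673 genes tested. The same held for all 9 fibroblast and all 9 smooth muscle genes listed below, so it is not particular to the macrophage genes. Among the 10 genes, each gene's log2 profile, centred on its own mean, was set against the mean profile of the other 9 by the root mean square difference over 8 libraries. C1qa (0.21), C1qb (0.21), Csf1r (0.25) and Aif1 (0.27) were nearest to the rest, Lyz2 stood apart at 0.61, and Cd68 at 1.21.

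**Figure D3:**
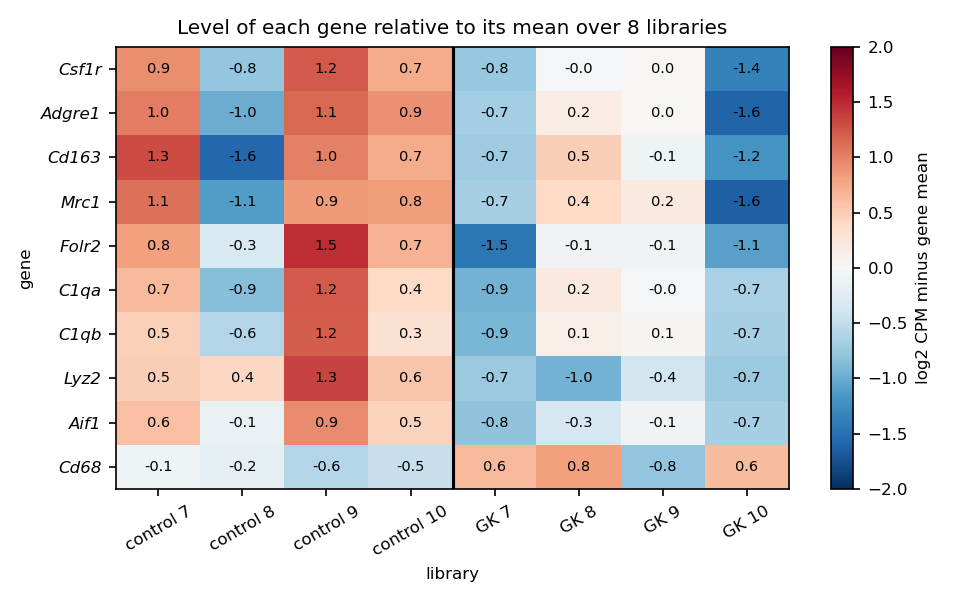
Log2 CPM of each gene minus its mean over the 8 libraries, as colour and number; columns are libraries and the line divides control from GK. Controls 7, 9 and 10 are high for all genes but Cd68, control 8 and GK 7 and 10 are low for most of them, and the Cd68 row runs the other way.

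Without control 8, 9 of the 10 genes (all but Cd68) had every GK library below every remaining control, as against 22.9% of all genes whose groups then did not overlap in either direction. That library was singled out after its values were seen. The median log2 fold change of the 10 genes was then -1.22, but the test had 1 library fewer and still called Lyz2 alone of the 10 (4.24% of all genes). Aif1 had an edgeR adjusted p of 0.0501, Csf1r of 0.0571 and Folr2 of 0.064. With all 8 libraries, without each other control, and without GK 7, GK 8 or GK 10, Lyz2 was the one gene without overlap. The share of all genes without overlap was then 22.2% without control 7, 19.5% without control 9, 17.5% without control 10, 17.2% without GK 7, 16.8% without GK 8 and 19% without GK 10. Without GK 9 there were 3, Lyz2, Aif1 and Cd68, against 37% of all genes. The edgeR test without GK 9 called 4 of the 10, Lyz2, Folr2 and Aif1 lower and Cd68 higher, beside 22.1% of all genes in that fit. GK 9, too, is singled out for its values, so the call of Cd68 rests on that choice.

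Of 16 adipocyte genes tested 3 rose and none fell, and their mean level was taken as a fat level. The mean log2 CPM of the 16 genes ran 8.02, 8.40, 7.53 and 7.56 across controls 7 to 10, while the GK libraries had 8.84, 8.94, 8.10 and 8.98. Control 8 was the control with the highest fat level and GK 9 the GK library with the lowest. The mean log2 CPM of the 9 macrophage genes without Cd68 ran 5.61, 4.13, 5.95 and 5.42 across the controls, while the GK libraries had 3.94, 4.78, 4.76 and 3.73. The libraries did not mirror each other throughout. GK 8 had a higher fat level than GK 7 and also the highest macrophage mean in GK. Control 7 was above control 10 in both. Of the brown adipocyte genes 1 of 6 tested rose and none fell (median 1.25, summed level 567 to 2991 CPM in controls and 1495 to 4993 in GK). It was Otop1, from 7.55 ± 3.36 to 78.4 ± 30.6 CPM. Of the general adipocyte genes 2 of 10 rose (median 0.77, 6241 to 9140 and 8556 to 16824 CPM), the lipid droplet genes Plin4 (239 ± 52.0 to 510 ± 47.5 CPM) and Cidec (386 ± 87.1 to 809 ± 187 CPM). Of the 16, 3 had lower GK means without passing the test: Lep, which encodes leptin (101 ± 90.7 and 26.7 ± 17.5 CPM, log2 fold change -1.92), Prdm16 (-0.24) and Cfd (-0.06). With the fat level as a covariate none of the 10 genes passed the edgeR test (4.82% of all genes did), and their median was -0.06. Lyz2 was then at -0.90 ± 0.28 (edgeR adjusted p = 0.0963), and Cd68 at -0.29 ± 0.34. The fat level differs between the groups, so this fit cannot tell a part played by fat from one played by the strain. The part of fat in the macrophage values was not tested beyond this.

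**Figure D4:**
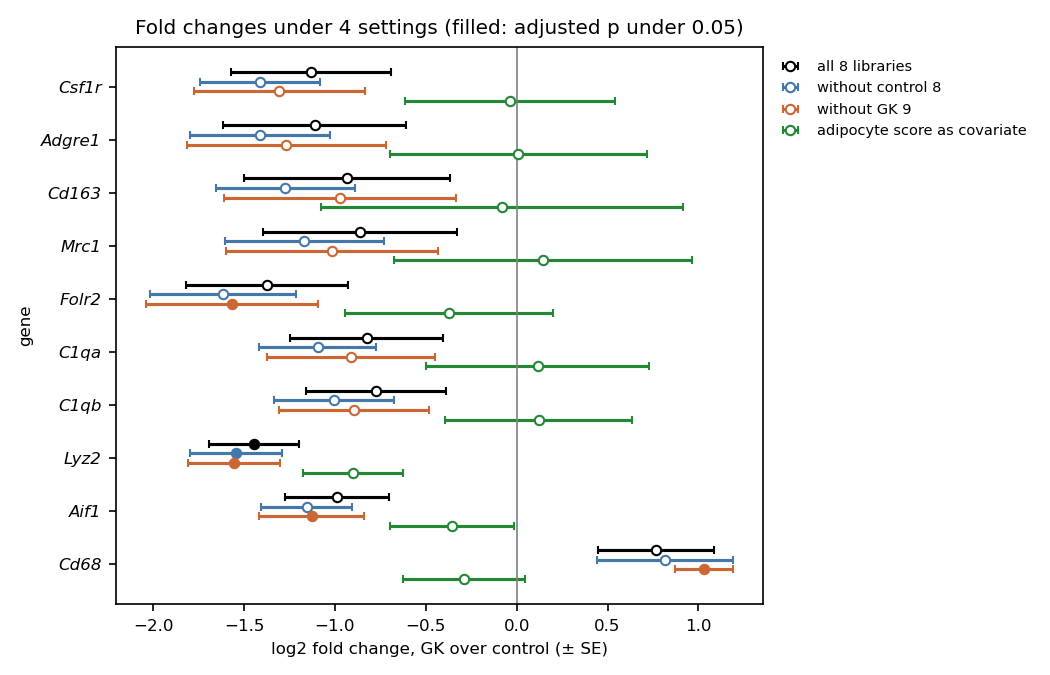
Log2 fold change of each gene, GK over control, with its SE, from edgeR under 4 settings shown by colour; filled points have an adjusted p under 0.05. Points without control 8 lie left of those with all 8 libraries for the 9 genes that are lower in GK, and with the adipocyte score as covariate the values lie between -0.90 (Lyz2) and 0.14 (Mrc1).

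Other genes of the macrophage programme were counted by list. Of 20 further surface and secreted genes of tissue macrophages 17 were tested, 1 fell and all 17 lay below 0, beside 3.31% of all genes that fell (median -0.64; summed level 507 to 1195 CPM in controls and 375 to 765 in GK). The gene that fell was Msr1, a scavenger receptor for modified lipoproteins, from 17.2 ± 6.11 to 7.78 ± 1.01 CPM, a change of -1.14 ± 0.29 on the log2 scale (edgeR adjusted p = 0.0486). Control 8, at 8.41 CPM, was again the lowest control. Lyve1, the hyaluronan receptor of adventitial macrophages, stood at 50.8 ± 28.4 and 30.6 ± 15.1 CPM (edgeR adjusted p = 0.397) and was chosen with its values in view. Marco and Vsig4, receptors of other resident macrophages, were at 0.402 CPM or less in every library.

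Among 12 genes of the CSF1 axis and of transcription factors 1 fell and none rose (median -0.30). Cebpa (0.64), Cebpb (0.59) and Nr1h3 (0.45), which are also active in fat cells, had log2 fold changes above 0 that did not pass the test. Irf8, a factor of monocyte and macrophage development, fell from 18.3 ± 3.26 to 9.26 ± 1.94 CPM without overlap (-0.98 ± 0.20, edgeR adjusted p = 0.03). Spi1, which encodes PU.1, had 10.5, 6.47, 16.2 and 9.48 CPM in controls and 5.55, 6.31, 7.94 and 3.02 in GK (-0.90 ± 0.35, edgeR adjusted p = 0.144), with control 8 again the lowest control. Csf1, the ligand of Csf1r, stood at 55.8 ± 13.1 and 36.7 ± 11.2 CPM (-0.60 ± 0.25, edgeR adjusted p = 0.161). Spi1 and Csf1 were named for their link to the 10 genes.

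Of 11 genes of C1q partners and phagocyte receptor signalling 1 rose and none fell, while 10 lay below 0 (median -0.69). The one that rose was Fcgr3a, an Fc receptor, at 0.422 ± 0.185 CPM in controls and 1.26 ± 0.261 in GK (edgeR adjusted p = 0.0466). It lies close to related Fc receptor genes, so the share of reads among them is uncertain. Control 8 was the lowest control for 10 of these 11 genes.

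Genes of the lysosome, where the Cd68 protein lies, were listed separately. Of 16 genes tested for phagocyte lysosomes and lipid handling 2 rose and none fell (median 0.22, 10 above 0; summed level 2894 to 3356 CPM in controls and 3294 to 5176 in GK), and many of them are active in all cell types. Lamp1, a lysosomal membrane protein, rose from 332 ± 19.6 to 672 ± 166 CPM (1.02 ± 0.21, edgeR adjusted p = 0.0307), and Psap, which is cut into activators of lipid breakdown, from 726 ± 90.5 to 1489 ± 404 CPM (1.04 ± 0.26, edgeR adjusted p = 0.0484). Among these 16 genes, the profile of Cd68 over the 8 libraries lay nearest to Ctsd, cathepsin D (root mean square difference 0.19 log2 units). Psap (0.26), Lamp2 (0.30) and Lamp1 (0.34) followed. These genes lay 1.02 to 1.26 from the mean of the other 9 macrophage genes. Ctss, the cathepsin of antigen-presenting cells, lay 1.08 from Cd68 and 0.17 from the other 9. Genes outside this list were not ranked against Cd68, so a likeness particular to lysosome genes is not shown. The adipocyte gene Fabp4 had 3438, 3020, 2278 and 1923 CPM across controls 7 to 10. In GK it had 5505, 5050, 2381 and 6080 CPM, with GK 9 again the low GK library. This comparison and Fabp4 were chosen after the Cd68 values were seen.

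Across 11133 named genes with a mean log2 CPM of at least 1, the 6 nearest to the mean profile of the 10 genes were Klra2 (0.11), Ctss (0.11), Ccr1 (0.15), Nfam1 (0.16), Cybb (0.16) and Nlrc4 (0.17 log2 units, over 8 libraries). Klra2 is a lectin-like receptor gene, Ccr1 a chemokine receptor, Cybb the catalytic subunit of the phagocyte NADPH oxidase and Nlrc4 an inflammasome sensor. Cybb had 66.0, 28.0, 76.3 and 58.8 CPM across the controls, while GK had 27.2, 34.0, 30.9 and 23.8, with control 8 as the low control. The 6 genes were picked for this profile, so that order of libraries follows from the choice. None of the 6 passed the edgeR test (adjusted p 0.0691 to 0.282). None of the 10 macrophage genes was a target in the authors' deposited pairs of lncRNA and gene used here.

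The macrophage genes were also set against leukocytes in general. Of 12 pan-leukocyte genes none passed the edgeR test and all 12 lay below 0 (median -0.49; summed level 322 to 539 CPM in controls and 260 to 462 in GK). Ptprc, the common leukocyte antigen CD45, stood at 63.9 ± 21.1 and 59.4 ± 33.4 CPM, and Cd48 at 99.4 ± 10.7 and 97.2 ± 8.25. These genes, named for the highest mean CPM on the list, had the smallest log2 fold changes of the 12 (-0.11 and -0.03). The lowest, chosen with their values in view, were Itgb2, an integrin chain (-0.85, edgeR adjusted p = 0.0943), Cd53 (-0.83), Laptm5 (-0.72) and Was (-0.66). The median of the macrophage genes was -0.96. Each macrophage gene's log2 CPM was then taken minus the mean log2 CPM of these 12 genes. Lyz2 then lay between 3.65 and 3.96 in controls and between 2.63 and 3.20 in GK, without overlap. The GK mean minus the control mean was -0.95. For the other genes with lower GK means the difference was -0.88 for Folr2, -0.60 for Csf1r, -0.58 for Adgre1, -0.48 for Aif1, -0.38 for Mrc1, -0.28 for Cd163, -0.25 for C1qa and -0.24 for C1qb, all with overlap between the groups. Folr2 lay at -1.04 ± 0.51 in controls and -1.92 ± 0.58 in GK, and C1qa at 0.14 ± 0.67 and -0.11 ± 0.50. Cd68 had 1.67, 1.88, -0.41 and 1.96 across the GK libraries, while the controls had 0.46, 0.52, -0.60 and 0.24, so both libraries numbered 9 were low.

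Markers of other blood cells were counted beside the macrophage genes. None of the tested T cell (6), B cell (5), mast cell (8) or monocyte and neutrophil (10) genes passed the edgeR test, with medians of 0.02, -0.43, -0.81 and -0.32. Their summed levels in controls and in GK were 12.7 to 26.8 and 10.8 to 40.6 CPM for T cells, 5.80 to 16.2 and 4.91 to 18.001 for B cells, 37.8 to 87.3 and 29.8 to 64.3 for mast cells. For monocytes and neutrophils they were 41.7 to 195 and 254 to 333 CPM, of which Mpo made up 234 to 304 in GK. Lck, a T cell kinase, stood at 6.34 ± 1.73 and 7.39 ± 4.31 CPM, and Cd3e, a chain of the T cell receptor complex, at 3.12 ± 1.24 and 2.89 ± 2.28. Cd79a, a chain of the B cell receptor complex, stood at 2.93 ± 2.47 and 1.59 ± 0.942 CPM, and Jchain, which joins antibody molecules, at 3.02 ± 1.98 and 3.66 ± 2.11. Kit, the stem cell factor receptor, stood at 17.4 ± 5.17 and 12.8 ± 4.69 CPM, Gata2, a transcription factor, at 19.8 ± 3.44 and 22.4 ± 10.8, and both are also active in other cells. The mast cell proteases and the IgE receptor chain had lower GK means: Cpa3 stood at 17.8 ± 9.95 and 5.28 ± 4.18 CPM (log2 fold change -1.75), Cma1 at 6.87 ± 3.88 and 2.47 ± 1.36 (-1.48), Ms4a2 at 3.61 ± 2.69 and 1.33 ± 0.584 (-1.44) and Tpsb2 at 4.28 ± 1.05 and 2.21 ± 1.19 (-0.95), with edgeR adjusted p between 0.172 and 0.197. Those 4 genes were chosen with their values in view. Plac8, of the monocyte and neutrophil list, stood at 9.49 ± 3.502 and 6.02 ± 3.36. No gene on these lists was at 0 in all 8 libraries. Ccr2, the receptor that marks recruited monocytes, was at 0.871 CPM or less in every library. Of 4 dendritic cell genes tested 1 fell, while 2 lay below 0 and 2 above (median -0.71, summed level 20.4 to 36.9 and 23.0 to 30.8 CPM). Control 8 was also the lowest control for 7 of 8 mast cell genes and for none of the T and B cell genes.

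Genes of antigen presentation by class II molecules, which macrophages share with other cells, had 3 of 8 lower and none higher (median -1.03; 264 to 576 and 101 to 237 CPM). These were RT1-Ba, an alpha chain gene, and RT1-Bb and RT1-Db1, beta chain genes. Reads may be shared among related class II genes. Whether reads of these genes map equally well in both strains was not tested. RT1-Ba stood at 52.4 ± 24.0 and 2.99 ± 2.71 CPM (-4.12 ± 0.60, edgeR adjusted p = 0.0114), RT1-Bb at 30.9 ± 7.44 and 6.29 ± 3.70 (0.0171), and RT1-Db1 at 28.0 ± 13.5 and 5.14 ± 2.82 (0.0247). Of 5 genes of inflammatory activation tested none passed the edgeR test (median -0.64; 18.7 to 78.0 and 16.4 to 158 CPM), with Ptgs2, a prostaglandin synthase, at 33.7 ± 27.2 and 67.0 ± 66.8 CPM and Ccl2, a monocyte chemokine, at 3.15 ± 1.13 and 1.74 ± 0.961. Tnf was at 1.88 CPM or less in every library. Of 4 genes of alternative activation tested 1 fell (median -0.84). The summed level of the 7 found was 248 to 584 CPM in controls and 327 to 511 in GK. Most of that sum was Tgm2, named for this reason, at 213 to 532 and 304 to 459 CPM (log2 fold change 0.02). The gene that fell was Arg1, an arginase, at 2.17 ± 0.356 and 0.540 ± 0.221 CPM (edgeR adjusted p = 0.0179).

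The vessel wall lists moved as well. Fibroblast genes had 4 of 9 lower (median -1.20; 7409 to 14551 and 1661 to 5125 CPM), smooth muscle genes 2 of 9 lower (median -1.08; 5491 to 14849 and 2654 to 7559 CPM), and endothelial genes 3 of 8 higher (median 0.37; 643 to 1009 and 1040 to 1273 CPM). The called genes with the lowest p were Col3a1 (5627 ± 1664 and 1120 ± 466 CPM), Col1a1 (2582 ± 1098 and 428 ± 289) and Dpt (133 ± 64.4 and 29.8 ± 15.4) of fibroblasts, which are matrix genes. For smooth muscle they were Itga8, an integrin (1437 ± 573 and 312 ± 107 CPM), and Lmod1 (459 ± 134 and 178 ± 65.7). For endothelium they were Kdr, the main VEGF receptor (125 ± 22.9 and 342 ± 94.3 CPM), Sox17 (15.2 ± 1.39 and 29.1 ± 5.79) and Nos3 (40.6 ± 7.88 and 69.5 ± 3.55). Control 8 was the lowest control for all 9 fibroblast and all 8 endothelial genes and for none of the 9 smooth muscle genes. The median of the macrophage genes (-0.96) thus lay near those of the fibroblast and smooth muscle lists, and nothing particular to macrophages is shown by it. The part of these cell types in the macrophage values was not tested. The smooth muscle markers show that all 8 libraries hold aortic wall, with Myh11 between 958 and 4903 CPM, and Ucp1, the brown fat uncoupling protein, between 336 and 3700 CPM shows fat in all of them.

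**Figure D5:**
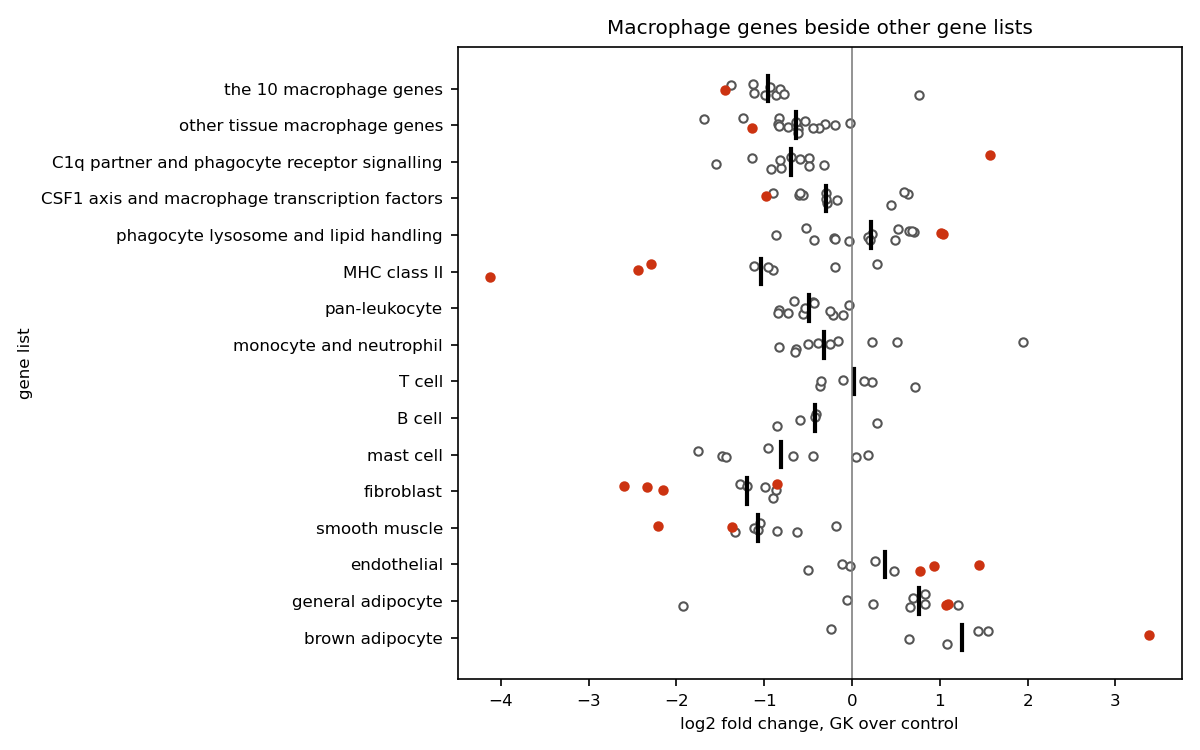
Log2 fold change, GK over control, of each tested gene by list; red points passed edgeR at an adjusted p under 0.05, open points did not, and the black bar is the list's median. The 10 macrophage genes centre at -0.96 with Cd68 to the right of 0, beside -0.49 for pan-leukocyte, -1.20 for fibroblast and 1.25 for brown adipocyte genes.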

How the data were processed

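Total RNA of thoracic aorta was measured in 8 libraries, grouped by title. The authors deposited raw counts and FPKM values per gene and library, per the file headers. The deposited table also holds the authors' log2 fold changes of group mean FPKM and their edgeR p-values and q-values, with no version given. The submitters' processing notes name Bowtie 0.12.2 and the mouse builds mm8 and mm9 with no role; the sources used here give neither the counter nor the rat build. Counts were tested in R 4.3.3 with edgeR 4.0.16, limma 3.58.1 being loaded with it: low genes were removed by filterByExpr, TMM factors (0.826 to 1.24) were applied, and the quasi-likelihood test had group as its single term, called at an adjusted p under 0.05. The test was checked on counts drawn with known changes. Gene totals were 11760397 to 16266151 per library, so 3 counts equal 0.194 to 0.277 CPM. Log2 CPM used a prior count of 2.

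The members and the 19 gene lists were chosen with earlier results of these data known. Of 197 list entries 190 were found, 1 of them through a synonym in the RefSeq table (GRCr8); the others were not analysed here. Besides the 10 genes, the text names up to 3 called genes per list or, with none, the 2 most abundant, the 6 genes of most similar profile, and a few marked as chosen later. Alternatives were RLE factors, no factors, no filter, DESeq2 1.42.0, the replicate number as a block, the adipocyte score as a covariate, and each library or both numbered 9 left out.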

Additional observations from a re-analysis of the deposited data

Results flagged for a closer look

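4 values stood apart within their group of 4 libraries on the log2 CPM scale, by Dixon's test. Chance alone marks about 1 in 20 groups, and 20 were examined here. Adgre1 in control 8 was 5.73 CPM against 21.7 in the next lowest control, and Mrc1 in control 8 was 32.9 against 128 CPM. Cd68 in GK 9 was 19.3 CPM against 52.1 in the next lowest GK library. Lyz2 in control 9 was 525 CPM against 304 in the next highest control. In control 8 Cd163 (17.7 CPM) and Csf1r (35.7 CPM) were low in the same way but short of that limit.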

How the results depend on the processing

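Of the single-gene fold changes under the alternatives, 133 kept their direction and their side of the threshold, 5 kept their direction but were no longer called, 7 became called and 5 turned sign. Those 5 did so with the adipocyte score as covariate: Cd68 to -0.29, Adgre1 to 0.0098, Mrc1 to 0.14, C1qa to 0.12 and C1qb to 0.12. That setting left none of the 10 genes called (0) and 659 genes in all. The cause was not tested. DESeq2 called 3 of the 10, Lyz2, Folr2 and Aif1, all lower, and 2433 genes (16.2%). Leaving out both libraries numbered 9 gave 3 of the 10, Lyz2 and Aif1 lower and Cd68 higher, and 2534 genes (18.7%). Library totals without factors gave 473 genes and no filter 654, and moved the median of all genes to -0.16 and 0.01. Leaving out 1 library gave 0 to 4 of the 10 genes and 135 (without control 10) to 3046 (without GK 9) genes in all. The fold change of Lyz2 then lay between -1.55 and -1.18 and that of Cd68 between 0.62 and 1.03. The labels do not say whether the replicate numbers pair the libraries. Deviations from the group means correlated at 0.42, 0.07, 0.55 and 0.02 for numbers 7 to 10. Libraries of unlike number correlated at -0.39 to 0.41, and 2 of 4 numbers correlated best with their own. These values cannot settle whether the numbers mark a pairing. With the number as a replicate block 2372 genes were called and still Lyz2 alone of the 10. Genes near 1 CPM rest on few counts.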

Other observations

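Mpo, the myeloperoxidase of neutrophil and monocyte granules, had 52.5, 73.8, 146 and 19.3 CPM across controls 7 to 10, while the GK libraries had 234, 293, 296 and 304 CPM. The groups did not overlap, and the edgeR adjusted p was 0.0546. The other neutrophil genes on the list did not stand out with it: S100a8 was at 3.33 CPM or less and S100a9 at 2.31 or less in every library. Cd83, a surface protein of mature dendritic cells, fell from 4.92 ± 1.56 to 1.73 ± 0.588 CPM without overlap (-1.50 ± 0.35 on the log2 scale, edgeR adjusted p = 0.0395). The other dendritic cell genes tested did not pass and did not move alike. Flt3 lay at -1.68 and Itgax at 0.07. Zbtb46 was higher in GK, at 10.9 ± 2.44 and 15.3 ± 1.30 CPM (0.49), also without overlap. These genes were named after their values were seen.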
